A study of Oryza sativa with 6 samples.

Results

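The heterochromatic short arm of rice chromosome 10 was described here through the G-quadruplex peaks that fall in it. Members were all peaks of chromosome 10 with a summit from position 500000 to 7200000 of the MSU v7.0 build, a stretch of 6.7 Mb. They were taken by position alone, but the arm itself was chosen with earlier results of these data known. The arm held 5769 of the 289038 peaks in the 4 peak lists together: the K+PEG lists gave 1391 (replicate 1) and 1584 (replicate 2), and the K+PDS lists 1390 (replicate 1) and 1404 (replicate 2). That was 1.90% and 1.93% of the K+PEG lists and 2.14% and 2.04% of the K+PDS lists. The arm was set beside the long arm of the same chromosome (summits from position 9000000 on, 14.2 Mb) and beside the rest of the genome (366.5 Mb). A second arm of the same kind, the short arm of chromosome 4 (8.5 Mb), is given for orientation.

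BG4-DNA-IP-seq was performed on fragmented genomic DNA from seedlings of rice (cultivar Nipponbare) grown for 2 weeks. The DNA was denatured and reassociated in a buffer with 150 mM KCl, which all libraries share, and incubated with the FLAG-tagged antibody BG4 with 40% PEG (K+PEG, 2 libraries) or with 5.0 µM PDS (K+PDS, 2 libraries). The extraction protocol of the labels names PEG only. The series also has 2 input libraries, which were not analysed here. The peaks were thus called on DNA refolded in vitro, not on chromatin. No file measures heterochromatin, so that part of the name was not checked against the data.

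G-quadruplexes (G4s) are 4-stranded structures in which guanines pair into stacked tetrads held by a central cation, and K+ is a strong stabilizer of them. BG4 is an antibody fragment that recognizes folded G4s. PEG is a crowding agent, which lowers the water available to the DNA, whereas PDS (pyridostatin) is a small ligand that stacks on the tetrads. The short arm of rice chromosome 10 is known from cytology and from its sequence as a largely heterochromatic arm, rich in transposable elements and poor in genes, whereas the long arm is mostly euchromatic. Places are given below by position alone, since gene models and sequence of the build of the files were not used here.

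A pair of facts on the whole series bear on every K+PEG against K+PDS value below. The depth recovered from the peak lists was about 7904190 and 13334900 reads in the K+PEG libraries, against about 5985000 and 7554100 reads in the K+PDS libraries, so K+PEG replicate 2 was the deepest. The names of the K+PDS peaks contain the word uniq and those of the K+PEG peaks do not. Whether reads that map to several places were treated alike in both conditions is not given in the sources used here, and a difference in naming and the difference in condition cannot be told apart.

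Peaks were denser in the short arm than in the long arm in each of the 4 libraries. The arm had 207.6 and 236.4 peaks per Mb in the K+PEG libraries, against 207.5 and 209.6 in the K+PDS libraries, so the conditions overlapped there. In the long arm the density was 196.2 and 222.2 peaks per Mb in the K+PEG libraries, against 172.7 and 180.6 in the K+PDS libraries, and in the rest of the genome it was 195.9 and 219.4 against 173.2 and 184.4. There the conditions did not overlap, with both K+PDS libraries below both K+PEG libraries. The short arm of chromosome 4 had 212.9 and 263.4 peaks per Mb in K+PEG and 238.2 and 236.0 in K+PDS.

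**Figure D1:**
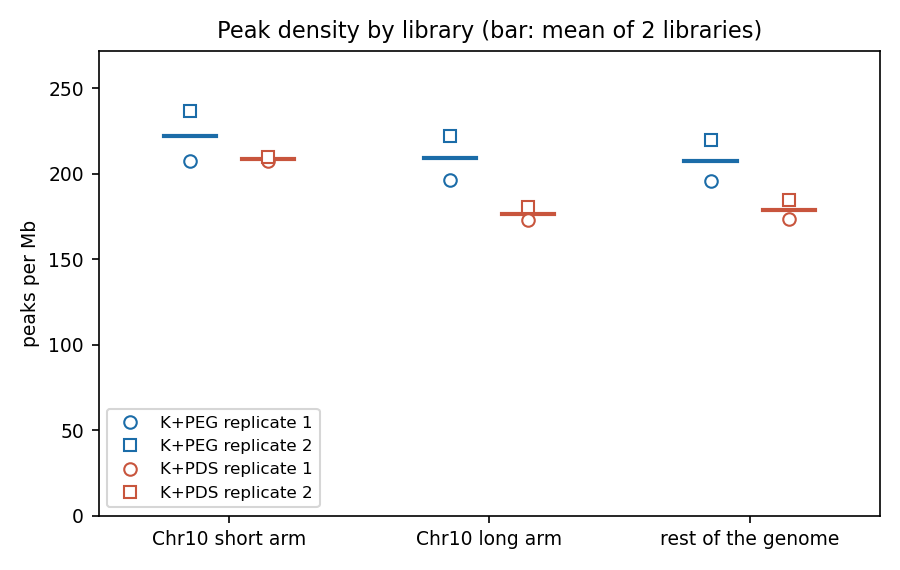
Peak density (peaks per Mb, vertical axis from 0) in the short arm of chromosome 10, the long arm and the rest of the genome, with 1 point per library and a bar at the mean of the 2 libraries of a condition. In the short arm the K+PDS libraries sit at 207.5 and 209.6, beside 207.6 for K+PEG replicate 1, whereas in the long arm and the rest both K+PDS libraries sit below both K+PEG libraries.

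Within a library, the short arm was 1.058 and 1.064 times as dense as the long arm under K+PEG and 1.201 and 1.160 times under K+PDS. On the log2 scale the ratio averaged 0.086 ± 0.0056 in K+PEG and 0.24 ± 0.035 in K+PDS (SD, n = 2 each). The difference, K+PEG minus K+PDS, was -0.15, and both K+PDS libraries lay above both K+PEG libraries (two-sided exact permutation test over libraries, p = 0.33, which is the smallest p that 2 against 2 libraries allow). Against the rest of the genome the same difference was -0.13 (exact permutation test, p = 0.33), with ratios of 1.06 and 1.078 under K+PEG and 1.198 and 1.137 under K+PDS. Over all libraries the short arm was denser than the long arm in 4 of 4, by 0.16 ± 0.091 on the log2 scale (SD, n = 4 libraries, exact sign-flip permutation test, p = 0.13, the smallest that 4 libraries allow). These exact tests over libraries therefore cannot pass a threshold of 0.05, and the replicates are 2 pulldowns per condition whose spread is the only error measured.

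The peaks of the arm were close to one another. The median distance between neighbouring summits was 2744 and 2365 bp in the K+PEG libraries and 2075 and 2586 bp in the K+PDS libraries, against long-arm medians of 3360 and 3021 bp in K+PEG and 2980 and 3271 bp in K+PDS. In the short arm of chromosome 4 it was 2516 and 2186 bp in K+PEG and 1946.5 and 2232 bp in K+PDS. Peaks covered 10.0% and 12.6% of the short arm under K+PEG and 12.3% and 11.1% under K+PDS. Long-arm coverage was 9.46% and 11.5% under K+PEG and 8.79% and 8.52% under K+PDS. The local background beneath the peaks, as the ratio of its median to the lowest background of the library, was 1.096 and 1.090 (K+PEG) and 1.079 and 1.084 (K+PDS) in the short arm, against 1.127 and 1.127 (K+PEG) and 1.099 and 1.113 (K+PDS) in the long arm. It was lower in the short arm in each library, and its part in the density was not tested.

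The peaks of the short arm were about as strong as those elsewhere. Fold enrichment compares summit reads with the background around the peak. Its median in the short arm was 3.82 and 3.53 in the K+PEG libraries and 3.83 and 3.33 in the K+PDS libraries. The long-arm medians were 3.8 and 3.62 in K+PEG and 3.8 and 3.25 in K+PDS. The difference of short from long arm was 0.0095 and -0.036 on the log2 scale in K+PEG, against 0.011 and 0.035 in K+PDS, which is small beside the spread between replicates of a condition within the arm. It averaged 0.0048 ± 0.030 over the libraries (SD, n = 4, exact sign-flip permutation test, p = 0.75), and changed sign without K+PDS replicate 2 (-0.0054). Between conditions it differed by -0.036 (exact permutation test, p = 0.33), but by -0.013 without K+PEG replicate 2, -0.059 without K+PEG replicate 1, -0.086 at a −log10 p of at least 5 and -0.018 with the long arm taken from position 7200000.

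Under K+PEG, the strongest peaks made up a smaller share of the peaks in the short arm than in the long arm. Peaks with a fold enrichment of at least 10 numbered 17 and 31 in the short arm under K+PEG and 26 and 7 under K+PDS. As a share of the peaks of the region these were 1.22% and 1.96% under K+PEG, against 2.12% and 2.95% in the long arm. Under K+PDS they were 1.87% and 0.499% in the short arm, against 1.79% and 0.507% in the long arm. The highest peak of the arm reached a fold enrichment of 19.5 and 17.5 in the K+PEG libraries and 23.4 and 26.8 in the K+PDS libraries, and ranked 36 and 30 in the K+PEG lists and 22 and 7 in the K+PDS lists. In 3 of the libraries this was the same peak at chr10:1233107-1233993, and in K+PEG replicate 2 it was chr10:1677234-1677893.

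Merging the lists gave 2199 sites in the short arm where at least 1 library had a peak. Of these, 562 (25.6%) were called in all 4 libraries, 389 in 3 and 762 (34.7%) in 1, against 23.7% and 36.7% of sites in the rest of the genome called in all 4 and in 1. Both K+PEG libraries alone called 173 sites, or 7.87% of those in the arm, against 10.1% of all sites of the genome. Both K+PDS libraries alone called 115 sites, or 5.23% of those in the arm, against 3.78% of all sites. In the long arm these shares were 10.6% for both K+PEG libraries alone and 3.20% for both K+PDS libraries alone. The arm thus held a smaller share of sites of K+PEG alone and a larger share of sites of K+PDS alone than the genome. The short arm of chromosome 4 went the same way, with 7.04% for both K+PEG libraries alone and 5.99% for both K+PDS libraries alone.

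Reproducible peaks are the segments that both replicates of a condition share by at least 1 bp, and a specific peak is a reproducible peak that meets no reproducible peak of the other condition. Under K+PEG the short arm had 1143 reproducible peaks, against 1010 under K+PDS. Of these, 494 were PEG-specific, 43.2% of the K+PEG peaks of the arm against 50.1% in the genome. There were 413 PDS-specific peaks, 40.9% of the K+PDS peaks of the arm against 35.6% in the genome. The 2 sets stood at 73.7 PEG-specific and 61.6 PDS-specific peaks per Mb in the short arm, at 82.7 and 34.5 in the long arm, and at 81.2 and 42.6 in the rest. The arm was thus slightly poorer in PEG-specific peaks and richer in PDS-specific peaks than either.

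Per PDS-specific peak there were 1.20 PEG-specific peaks in the short arm, 2.40 in the long arm and 1.90 in the rest of the genome. Chromosomes taken whole ranged from 1.45 (chromosome 4) to 2.73 (chromosome 3), with 1.68 for chromosome 10, and the short arm of chromosome 4 stood at 0.911. Peaks are not replicates of a condition, so this ratio has no test. It was lower in the short arm than in the long arm and than in the rest in 10 of 10 settings, which differed in the overlap rule, the threshold, the depth or the libraries. Its level moved with the rule: PEG-specific peaks made up 54.5% of the specific peaks of the arm, but 68.1% when a −log10 p of at least 5 was required and 47.0% when every list was cut to the same number of its strongest peaks, so which set was larger in the arm was not stable. Requiring that a specific peak meet no peak at all in either library of the other condition left 201 PEG-specific and 171 PDS-specific peaks. Leaving out 1 library gave 814 and 245 (without K+PEG replicate 1), 695 and 333 (without K+PEG replicate 2), 375 and 718 (without K+PDS replicate 1) and 317 and 642 (without K+PDS replicate 2), because the condition with 1 library left then has its whole list in place of an overlap of replicates.

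**Figure D2:**
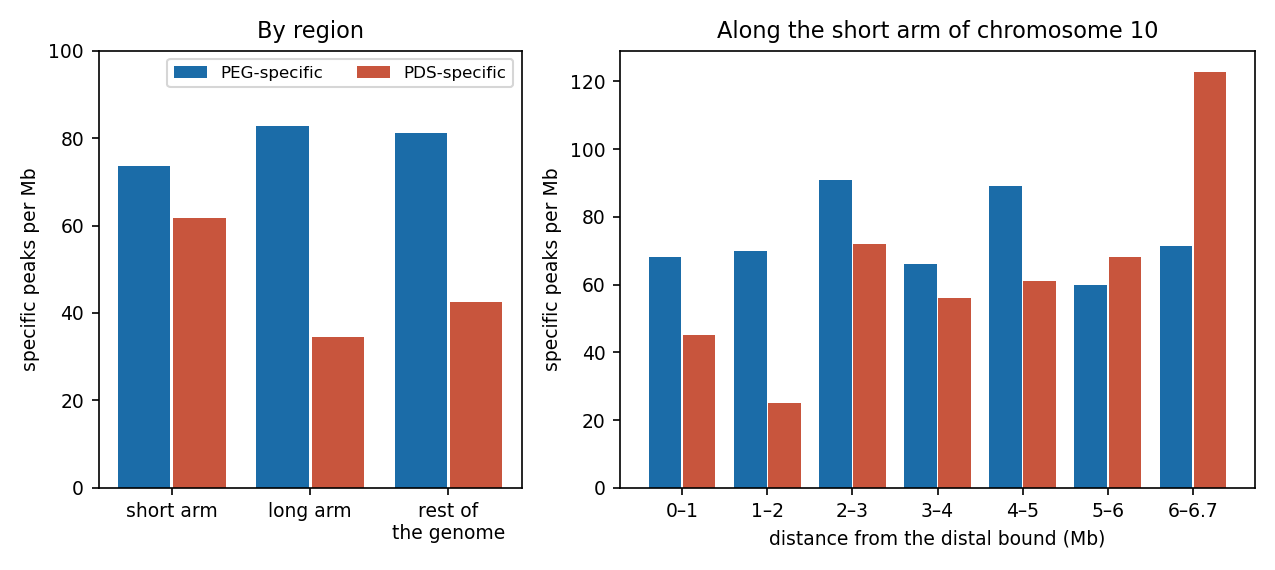
Density of PEG-specific and of PDS-specific peaks (peaks per Mb, vertical axes from 0) in the short arm, the long arm and the rest of the genome (left), and in steps of 1 Mb along the short arm from its distal bound, the last step being 0.7 Mb (right). The 2 bars of the short arm, 73.7 and 61.6, are closer than those of the long arm, 82.7 and 34.5, and along the arm the PDS-specific bar is the higher one in the last 2 steps.

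Strength can also be compared over the merged sites called in all 4 libraries. The value of a library is its highest fold enrichment anywhere in the site, so the summits compared may differ between libraries. At the 562 such sites of the short arm fold enrichment had a median of 4.62 and 4.60 in the K+PEG libraries and 5.06 and 3.84 in the K+PDS libraries. At the 1088 sites of the long arm it was 4.65 and 5.26 in K+PEG and 4.60 and 3.65 in K+PDS. Relative to the long arm, the short-arm sites were weaker in both K+PEG libraries (log2 difference of -0.0085 and -0.19) and stronger in both K+PDS libraries (0.14 and 0.071). Against the rest of the genome the values were -0.016 and -0.12 in K+PEG and 0.12 and 0.071 in K+PDS. K+PEG minus K+PDS was -0.20 for the long arm as the other region (exact permutation test over 2 against 2 libraries, p = 0.33), and it ranged from -0.29 to -0.11 when a library was left out.

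Site by site, the median log2 ratio of K+PEG to K+PDS strength was 0.018 in the short arm, against 0.29 in the long arm and 0.25 in the rest. Both K+PEG values lay above both K+PDS values at 159 of the 562 sites (28.3%, against 38% of such sites in the genome). Both K+PDS values lay above both K+PEG values at 146 sites (26.0%, against 18.4% in the genome). The 2 directions were nearly even in the short arm, whereas in the long arm K+PEG was above at 438 sites and K+PDS at 171. The trait was not particular to this arm. In the short arm of chromosome 4 the median log2 ratio was -0.034, with K+PEG above at 202 sites and K+PDS at 238.

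**Figure D3:**
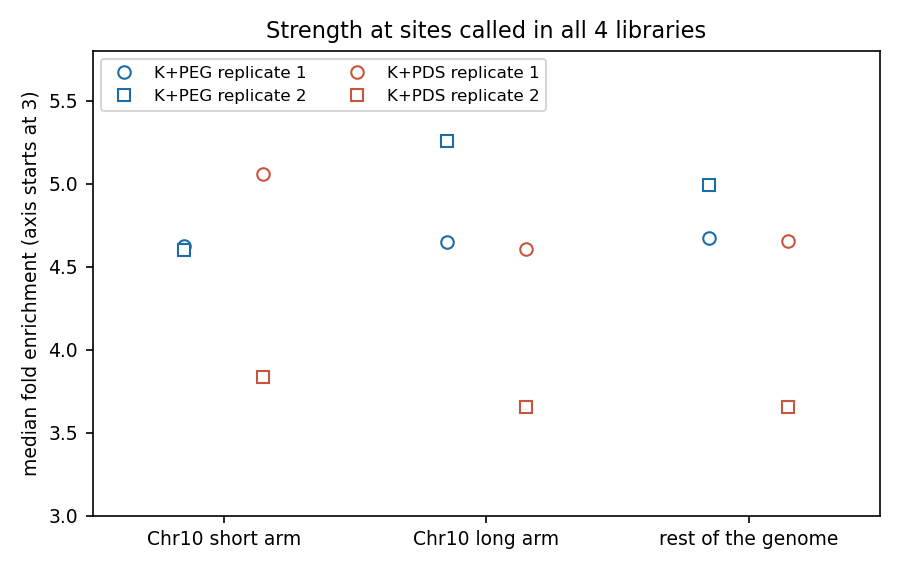
Median fold enrichment (vertical axis from 3, not from 0) at the sites called in all 4 libraries, 1 point per library, by region. K+PEG replicate 2 stands at 4.60 in the short arm and 5.26 in the long arm, and K+PDS replicate 1 at 5.06 in the short arm and 4.60 in the long arm.

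The locations that carry the arm's strongest common, PEG-specific and PDS-specific signal are given with the value of each library. The strongest common peak, chr10:1233107-1233993, had fold enrichments of 19.5 and 14.99 in the K+PEG libraries and 23.4 and 26.8 in the K+PDS libraries, from 105 and 126 summit reads in K+PEG and 102 and 139 in K+PDS. Here both K+PDS values were above both K+PEG values. The next, chr10:7087126-7087512 near the proximal bound, had 10.5 and 10.2 in K+PEG and 14.9 and 11.1 in K+PDS. The peaks that share chr10:7061941-7062494 had 8.915 and 9.48 in K+PEG and 10.7 and 9.85 in K+PDS. Each value is that of the whole peak at its own summit. The K+PDS peaks were 3046 and 3451 bp long here, so their summits need not lie in the shared segment. For both segments the overlapping K+PDS peaks had the higher value in each library. At chr10:5070018-5070695 the order was the other way, with 11.2 and 9.35 in K+PEG and 8.37 and 8.88 in K+PDS. When overlaps had to be reciprocal over 50% of the length, the last 3 of these 4 peaks no longer counted as common.

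The strongest PEG-specific peak was chr10:1718465-1719313, with fold enrichments of 10.7 and 9.10 from 54 and 72 summit reads. No peak of either K+PDS library met this shared segment, and the nearest K+PDS peak was 325 bp away. The whole K+PEG replicate 2 peak was 2579 bp long, however, and it met a peak of each K+PDS library. The next were chr10:2173441-2174073 (8.915 and 7.73), chr10:6557389-6558075 (7.48 and 9.17) and chr10:6776750-6777252 (7.17 and 7.61), with the nearest K+PDS peak 1460, 2124 and 774 bp away. The 4 lie in the distal and the proximal part of the arm, and their summits in the 2 K+PEG libraries were between 12 and 207 bp apart. With a reciprocal overlap of 50% the first of them was no longer in its set.

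The strongest PDS-specific peaks had fold enrichments between 4.62 and 7.47, against 7.17 to 10.7 for the PEG-specific ones. The first, chr10:6446904-6447214, had fold enrichments of 7.47 and 5.43 in the K+PDS libraries, from 30 and 26 summit reads, and its nearest K+PEG peak was 488 bp away. The others were chr10:6826297-6826566 (5.78 and 4.82), chr10:6325181-6325418 (4.82 and 5.02) and chr10:1252267-1252773 (6.02 and 4.62), with the nearest K+PEG peak 1988, 1203 and 1373 bp away. Of these 4 peaks, 3 lie in the most proximal 1 Mb of the arm, as do the PEG-specific peaks from 6557389 and 6776750. No summit of them had more than 30 reads, so counting error alone is larger for them than for the PEG-specific ones.

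The density changed along the arm. The distal part (to position 3850000) had 671 and 746 peaks in the K+PEG libraries and 609 and 646 in the K+PDS libraries. The proximal part had 720 and 838 in K+PEG and 781 and 758 in K+PDS. Proximal over distal was 0.10 and 0.17 on the log2 scale in K+PEG, against 0.36 and 0.23 in K+PDS. All 4 libraries had more peaks in the proximal part, and both K+PDS libraries lay above both K+PEG libraries (difference -0.16, exact permutation test, p = 0.33). The difference was -0.096 without K+PDS replicate 1 and -0.22 without K+PDS replicate 2.

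The specific peaks followed the same course. The distal part had 254 PEG-specific and 161 PDS-specific peaks, a ratio of 1.58, and the proximal part 240 and 252, a ratio of 0.952. In steps of 1 Mb from the distal bound the ratio was 1.51, 2.80, 1.26, 1.18, 1.46 and 0.882, and in the last 0.7 Mb it was 0.581, from 50 PEG-specific and 86 PDS-specific peaks. Outside the bounds, the distal tip of the chromosome (to position 500000) had 47 PEG-specific and 29 PDS-specific peaks, and the stretch around the centromere (from 7200000 to 9000000) had 113 and 158, a ratio of 0.715. The low ratio of the proximal end of the arm thus went on beyond its bound. Across the 67 bins of 100 kb, the rank correlation of distance from the distal bound with the log2 ratio of K+PEG to K+PDS peaks was -0.30, a description over neighbouring bins of the same 4 libraries.

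**Figure D4:**
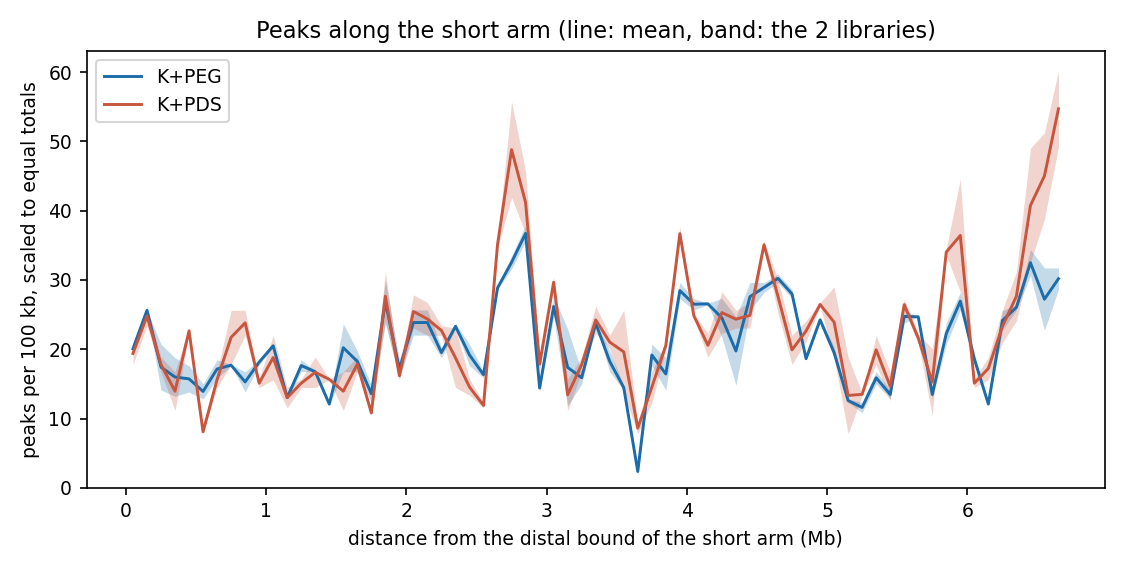
Peaks per 100 kb, scaled to equal library totals, against distance from the distal bound of the short arm (Mb), with a line at the mean of each condition and a band spanning its 2 libraries. K+PDS stands above K+PEG near 2.7 Mb and over the last bins before 6.7 Mb, and both conditions dip near 3.6 Mb.

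Peak numbers in the bins were also compared with the libraries as replicates. The 67 bins held between 3 and 36 peaks in K+PEG replicate 1 and between 2 and 43 in replicate 2, against 7 to 54 in K+PDS replicate 1 and 8 to 47 in replicate 2. Peak numbers of replicates ranked the bins alike, with rho of 0.84 between the K+PEG libraries and 0.82 between the K+PDS libraries across the 67 bins. After scaling to equal totals, both K+PEG libraries were above both K+PDS libraries in 12 bins (17.9%, against 31.6% of all bins of the genome). Both K+PDS libraries were above both K+PEG libraries in 23 bins (34.3%, against 22% of all bins). The long arm had 48 bins of the first kind and 22 of the second among 142.

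With limma on log2(scaled peaks per bin + 1), none of the 67 bins passed an adjusted p of 0.05. Over the 3736 bins tested in the genome, 11 passed as higher under K+PEG (0.294%) and 33 as higher under K+PDS (0.883%). At an unadjusted p under 0.05, 2 bins of the arm were higher under K+PEG (2.99%, against 11.8% of all bins) and 7 were higher under K+PDS (10.4%, against 9.74%). The median log2 ratio of K+PEG to K+PDS was -0.071 over the bins of the arm, 0.091 over those of the long arm and 0.063 over all bins. Without the scaling the median was 0.13 in the arm and 0.26 over all bins, so the sign in the arm rests on the scaling, and its place below the genome does not. K+PDS was the higher condition in 58.2% of the bins of the arm (35.8% unscaled), against 42.8% of all bins (23.7% unscaled). With 1 library left out the scaled median in the arm stayed below that over all bins. It was -0.051 against 0.060 without K+PEG replicate 1 and -0.085 against 0.070 without K+PEG replicate 2. Without K+PDS replicate 1 it was -0.031 against 0.039, and without K+PDS replicate 2 -0.14 against 0.079. On simulated data with 200 changed bins the fit recovered 6% of bins changed 2-fold and 97.5% of bins changed 4-fold. The spread of counts was assumed there, not estimated from these libraries. In that setting a 2-fold change was rarely called at 2 libraries a condition.

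The bins with the smallest adjusted p lay mostly near the proximal bound, all of them on the K+PDS side. The last bin of the arm, chr10:7100001-7200000, had 29 and 36 peaks in the K+PEG libraries and 54 and 47 in the K+PDS libraries (log2 ratio -0.83 ± 0.23 SE, limma adjusted p = 0.0691). It was also the bin with the most peaks. The neighbouring bin chr10:7000001-7100000 had 23 and 36 in K+PEG and 46 and 37 in K+PDS (limma adjusted p = 0.0958). Farther out, chr10:6300001-6400000 had 21 and 27 in K+PEG and 31 and 32 in K+PDS (limma adjusted p = 0.0894). In these bins the conditions did not overlap, and none passed. Limma on covered bases in place of peak numbers called 8 of 67 bins of the arm as higher under K+PDS, against 310 of 3737 in the genome. These 3 bins were among the 8, with limma adjusted p of 0.000128, 6.79e-05 and 0.00545 for the bins from 7100001, 7000001 and 6300001. At a −log10 p of at least 5 the first and second also passed (limma adjusted p = 0.0221 and 0.0460). When any 1 library was left out, the log2 ratio ranged from -0.97 to -0.69 in the bin from 7100001. It ranged from -0.94 to -0.48 in the bin from 7000001 and from -0.69 to -0.50 in the bin from 6300001.

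The bin with the smallest adjusted p was the emptiest of the arm. At chr10:4100001-4200000 the K+PEG libraries had 3 and 2 peaks and the K+PDS libraries 7 and 9 (log2 ratio -1.53 ± 0.41 SE, limma adjusted p = 0.0669). The limma adjusted p was 0.0210 with the replicate block and 0.0384 without the filter on low bins. It was 0.122 at a −log10 p of at least 5 and 0.174 without the scaling. On covered bases the log2 ratio was -0.70 (limma adjusted p = 0.138). When any 1 library was left out, the log2 ratio on peak numbers ranged from -1.79 to -1.26. This bin also held 2 of the 3 longest stretches of the arm without a peak in any library, chr10:4106238-4149334 (43097 bp) and chr10:4149651-4180745 (31095 bp). The other, chr10:3403705-3438568 (34864 bp), lay beside the densest part of the distal part. Stretches of at least 15000 bp without a peak numbered 21 in the arm, 31.3 per 10 Mb, against 29.6 in the long arm and 30.1 in the rest. The typical gap was shorter, with a median of 1131 bp between sites in the short arm, against 1418 bp in the long arm and 1386 bp in the rest.

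On the K+PEG side, chr10:5200001-5300000 had 29 and 31 peaks in K+PEG and 16 and 21 in K+PDS (log2 ratio 0.48 ± 0.18 SE, limma adjusted p = 0.155). Its log2 ratio ranged from 0.33 to 0.62 when any 1 library was left out. The bin chr10:1000001-1100000 had 13 and 17 in K+PEG and 7 and 8 in K+PDS (limma adjusted p = 0.169, or 0.0461 on covered bases), and was among the emptiest of the arm. Then came chr10:2000001-2100000 with 24 and 19 in K+PEG and 10 and 16 in K+PDS, and chr10:4600001-4700000 with 27 and 30 in K+PEG and 20 and 18 in K+PDS. None of these 4 lay in the last 1 Mb before the proximal bound.

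The other bins with the most and the fewest peaks had larger adjusted p values. The pair chr10:3200001-3300000 and chr10:3300001-3400000 had 32 and 38, and 36 and 43, peaks in the K+PEG libraries, and 50 and 40, and 41 and 35, in the K+PDS libraries. In chr10:3200001-3300000 both K+PDS libraries were above both K+PEG libraries (log2 ratio -0.56 ± 0.23 SE, limma adjusted p = 0.177, but 0.0436 on covered bases). Its log2 ratio ranged from -0.76 to -0.36 when any 1 library was left out. The bin chr10:6900001-7000000 had 31 and 39 in K+PEG and 44 and 31 in K+PDS (log2 ratio -0.29, limma adjusted p = 0.473). There the log2 ratio ranged from -0.58 to -0.0019 when any 1 library was left out. Among the bins with few peaks, chr10:2200001-2300000 had 15 and 14 in K+PEG and 10 and 10 in K+PDS, and chr10:5700001-5800000 had 11 and 14 in K+PEG and 12 and 13 in K+PDS. In the last of these the peak numbers of the conditions overlapped.

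Peaks of the arm had a median length of 375 and 418 bp in the K+PEG libraries and 408 and 378 bp in the K+PDS libraries, with the conditions overlapping. Long-arm medians were 389 and 406.5 bp in K+PEG and 372.5 and 360 bp in K+PDS. Short over long arm was -0.053 and 0.040 on the log2 scale in K+PEG, against 0.13 and 0.070 in K+PDS (difference -0.11, exact permutation test, p = 0.33). The difference was -0.061 without K+PEG replicate 1 and -0.18 at a −log10 p of at least 5. Over all libraries it averaged 0.047 ± 0.077 (SD, n = 4, exact sign-flip permutation test, p = 0.375), less than the spread between libraries.

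The long tail of the distribution separated the conditions more than the median did. Peaks of at least 2000 bp numbered 4 and 4 in the K+PEG libraries and 37 and 21 in the K+PDS libraries, or 0.288% and 0.253% of the peaks of the arm in K+PEG and 2.66% and 1.50% in K+PDS. The difference was -1.81 percentage points (exact permutation test, p = 0.33). In the long arm the shares were 0.180% and 0.698% in K+PEG and 1.67% and 0.858% in K+PDS, and in the rest of the genome 0.182% and 0.420% in K+PEG and 1.62% and 0.814% in K+PDS. In each K+PDS library the share was larger in the short arm than in the long arm and the rest, and the short arm of chromosome 4 was a little above it, with 2.72% and 1.60% (0.1105% and 0.581% in K+PEG). Whether its gap between conditions differs from that of the other regions was not tested.

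**Figure D5:**
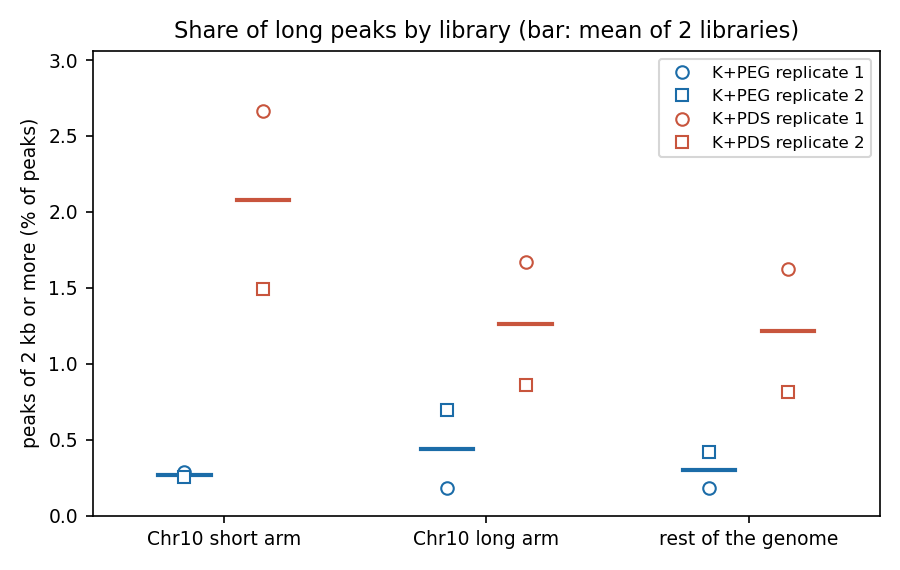
Share of peaks of at least 2000 bp (% of the peaks of the region, vertical axis from 0), 1 point per library and a bar at the mean of the 2 libraries of a condition. In the short arm the K+PEG libraries sit at 0.288% and 0.253% and the K+PDS libraries at 2.66% and 1.50%.

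Most of the long K+PDS peaks met a K+PEG peak of under 2000 bp. Of the 37 and 21 long peaks in K+PDS replicates 1 and 2, 36 and 21 met a peak of K+PEG replicate 1 and all met a peak of K+PEG replicate 2. K+PEG replicate 1 peaks covered a median of 54.6% and 64.3% of their length, and K+PEG replicate 2 peaks 62.8% and 62.7%. A K+PEG replicate 1 peak of at least 2000 bp was met by 3 long peaks of each K+PDS replicate, and no such peak of K+PEG replicate 2 was met (0 of 37 and 0 of 21). The K+PDS replicates shared 12 places with a long peak in each. The proximal part held 21 of the 37 in K+PDS replicate 1 and 13 of the 21 in replicate 2.

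The longest peak found in both K+PDS replicates was chr10:3330215-3333700 in replicate 1, of 3486 bp, and 3208 bp long in replicate 2, with fold enrichments of 5.60 and 5.42. K+PEG replicates 1 and 2 had 2 and 5 separate peaks over the span of both. Next came chr10:7061870-7064915 in replicate 1 (3046 bp) and chr10:7059195-7062645 in replicate 2 (3451 bp), which share only their ends. Over their joint span of 5721 bp the K+PEG libraries had 3 and 3 peaks and the K+PDS libraries 4 and 2. At chr10:3255728-3258334 both K+PDS replicates had a peak of 2607 bp, with fold enrichments of 13.5 and 12.3, against 2 peaks in each K+PEG library that reached 8.14 and 6.98. Under K+PEG the longest by the shorter of both replicates was chr10:1298071-1299996, of 1926 bp and 1866 bp in replicate 2, followed by chr10:5251024-5252841 (1818 and 1797 bp) and chr10:2493017-2494633 (1617 and 1689 bp). None of the 6 was specific to a condition. Single K+PEG libraries reached 2090 bp (replicate 1) and 2579 bp (replicate 2).

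The peaks on either side of the bounds are given as a description. The first summits inside the distal bound lay 373 and 392 bp from it in the K+PEG libraries and 403 and 469 bp in the K+PDS libraries, with fold enrichments of 4.46 and 2.58 in K+PEG and 2.64 and 3.34 in K+PDS. The last ones outside lay 3243 and 3328 bp away in K+PEG and 3254 and 3265 bp in K+PDS, with 2.71 and 3.796 in K+PEG and 6.74 and 4.48 in K+PDS. At the proximal bound, the summits just inside had fold enrichments of 2.91 and 4.24 in K+PEG and 3.13 and 2.38 in K+PDS, and those just outside 3.10 and 4.24 in K+PEG and 7.47 and 4.62 in K+PDS.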

How the data were processed

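BG4-DNA-IP-seq peak lists of 4 libraries were used, 2 per condition as labelled. According to the methods, reads were trimmed (Trim Galore 0.4.4) and mapped to MSU v7.0 (BWA 0.7.17). The authors retained alignments over 50 bp, discarded duplicates (SAMtools 1.5) and ran MACS2 2.1.1 on each library at p = 0.01, so that no replicates were pooled. The control given to MACS2 and the read extension are not given in the sources used here. The deposited lists hold the fold enrichment, a ratio of summit reads to local background with 1 added to each. They also hold −log10 p and −log10 q of the summit as the authors' caller wrote them, and a deposited score that is 10 times the −log10 p and was not used. Printed positions count from 1.

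Summit reads and depth were recovered from fold enrichment and p with an extension of 200 bp, and came out whole for every peak (tolerance 0.05 reads). Overlaps were computed by bedtools 2.31.1 and summarised in Python 3.11.15 (numpy 2.4.6, pandas 2.3.3, scipy 1.17.1), and bins of 100 kb with a mean of at least 2 peaks were fitted over the whole genome with limma 3.58.1 in R 4.3.3, with Benjamini-Hochberg adjustment. A chromosome ends at its last peak. Both were tested on simulated data. Libraries were compared with exact permutation tests. Alternatives changed the overlap rule, the p threshold, depth, number of peaks, bounds, bins and libraries. Named places are the 4 strongest peaks of each set by their weaker library (for specific ones, only those that no peak of the other condition meets), the 4 bins with the most, the fewest and the smallest adjusted p in each direction, and the 3 longest gaps and peaks. The arm and these lists were chosen with earlier results of these data known.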

Additional observations from a re-analysis of the deposited data

Results flagged for a closer look

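The strength of the short arm relative to the long arm at sites called in all 4 libraries had opposite signs in the 2 conditions: -0.0085 and -0.19 on the log2 scale in the K+PEG libraries, and 0.14 and 0.071 in the K+PDS libraries. The difference, K+PEG minus K+PDS, was -0.20 (exact permutation test over 2 against 2 libraries, p = 0.33, the smallest possible). The measure was chosen after the data were seen. It was -0.16 with the rest of the genome in place of the long arm and -0.22 at equal depth. K+PEG replicate 2, the deepest library, carried most of the K+PEG side, and without it the difference was -0.11. At such sites the short arm of chromosome 4 had median fold enrichments of 4.46 and 4.50 in K+PEG and 5.06 and 3.85 in K+PDS. The medians in the rest of the genome were 4.68 and 4.99 in K+PEG and 4.66 and 3.65 in K+PDS.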

How the results depend on the processing

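Differences between conditions in density, strength and length kept their sign in each alternative run, and no exact test over 2 against 2 libraries could pass a threshold. The mean short-arm to long-arm strength over all libraries was near 0 and changed sign with the long arm taken from 7.2 Mb (-0.0005033) and within the range given by leaving out 1 library (-0.0054 to 0.018). PEG-specific peaks were 54.5% of the specific peaks of the arm. The share was 60.6% with a reciprocal overlap of 50%, 68.1% at a −log10 p of at least 5 and 47.0% with the same number of peaks per library, and it ranged from 33.1% to 76.9% without 1 library. PDS-specific peaks numbered 236 at a −log10 p of at least 5 and 171 when set against any peak (245 to 718 without 1 library), and PEG-specific peaks 201 when set against any peak (317 to 814). The cause of the shift with the p threshold was not tested. Bins of the arm passing the limma fit were 0 of 67 in the main run. Genome counts are given beside the others, as higher under K+PEG and higher under K+PDS. Without the filter on low bins 1 passed (from 4100001), against 11 and 30 of 3738 in the genome. With bins of 200 kb 3 of 33 passed, against 78 and 77 of 1872. On covered bases 11 of 67 passed, 3 as higher under K+PEG and 8 as higher under K+PDS, against 484 and 310 of 3737. The share that passed in either direction was thus smaller in the arm than in the genome. By direction it was smaller for K+PEG and larger for K+PDS. At a −log10 p of at least 5 the count was 2 of 67 (from 7000001 and 7100001), against 42 and 57 of 3735. Apart from covered bases, the arm bins that passed in these runs were all higher under K+PDS.

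Replicate numbers are shared by the conditions, but whether same-numbered libraries share material is not given in the sources used here. Deviations of same-numbered libraries correlated at -0.087 over 3736 bins, which cannot settle it. With the replicate block, 1 bin of the arm passed, the one from 4100001. Over the 3736 bins of the genome 55 passed as higher under K+PEG and 117 as higher under K+PDS. Differences between conditions stayed at -0.15 (density against the long arm), -0.13 (against the rest), -0.036 (strength), -0.11 (length), -0.20 (strength at sites of all 4 libraries), -1.81 percentage points (long peaks) and -0.16 (proximal against distal part), each with an exact p of 0.5, the smallest that 2 pairs allow. Of the values of named peaks under the alternatives, 56 of 60 kept their call. The 4 peaks that did not were lost with a reciprocal overlap of 50%, and are the PEG-specific peak from 1718465 and the common peaks from 7087126, 7061941 and 5070018. The way these peaks were picked meant that the rule against any peak could not change their call. As the strongest, they were also favoured by the stricter cuts, and none was rerun without a library. No named bin passed in the main run, so a kept call there meant only that it again did not pass. Its sign could still change, as in the bins from 3300001 (-0.15, but 0.053 unscaled) and 5700001 (-0.20, but 0.14 at a −log10 p of at least 5). Depth limits precision: the median summit of the arm had 21 and 32 reads in K+PEG and 17 and 17 in K+PDS.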
